A study of Homo sapiens with 18 samples.

Results

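Class II tRNAs, those with a long variable arm, were taken as every row of the table of small RNAs named for a serine (Ser), leucine (Leu) or selenocysteine (SeC) tRNA gene. They are 72 of 2462 features: 28 serine, 41 leucine and 3 selenocysteine genes, beside 512 tRNA genes of other isotypes. Small RNA was measured in extracellular vesicles and in cells of HEK293T, a human embryonic kidney line, with 3 libraries in each of 6 groups. The groups were vesicles of ATG7-/- cultures (clone F2), of ATG12-/- cultures (clone D9) and of wild type cultures, and the cells of the same genotypes. Every culture, wild type included, had been kept without serum for 24 h. Each knockout is 1 clone, so that genotype and clone cannot be told apart. The labels call the 3 libraries of a group biological replicates and give no wild type clone. ATG7 and ATG12 belong to the machinery that attaches LC3 to membrane lipids, and the study asked whether RNA in vesicles depends on it. A table of small RNAs gives no check of the knocked-out mRNAs or of the cell line.

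A tRNA reads a codon through its anticodon and carries the matching amino acid. In class II tRNAs the stretch between the anticodon arm and the T arm forms an arm of its own. Seryl-tRNA synthetase binds that arm in both serine and selenocysteine tRNAs, since selenocysteine is made on a tRNA first charged with serine. The leucine enzyme in human cells recognises mainly other parts of its tRNA. The serine anticodons AGA, CGA and TGA read the UCN codons, whereas GCT and ACT read the remaining serine codons AGU and AGC. The leucine anticodons AAG, CAG and TAG read the CUN codons, and CAA and TAA read the UUG and UUA codons. The TCA anticodon of the selenocysteine tRNA reads UGA, a stop codon elsewhere, in the mRNAs of selenoproteins. RNA polymerase III makes all of them.

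The class label was compared with gene length in RefSeq (GRCh38.p14), which placed 60 of the 72 genes. Of these 60, 58 were at least 82 bases long. There were 53 of 82 to 87 bases, and 5 leucine CAA genes of 105 to 108 bases, genes that carry an intron. The short ones were Ser-AGA-5-1 with 72 bases and Leu-CAA-5-1 with 74 bases. Of the 340 placed tRNA genes of other isotypes, 316 were 70 to 75 bases long, with a median of 73, and 23 reached 82 bases, 13 of them tyrosine genes. On chromosome 6 lay 28 of the 60 placed class II genes, among them Ser-AGA-1-1 at chr6:27541775-27541856 and Leu-AAG-3-1 at chr6:28989002-28989083. Leu-AAG-2-4 lies at chr16:22297140-22297221 and SeC-TCA-1-1 at chr19:45478601-45478687. Names give the isotype, the anticodon, the number of the mature tRNA and the number of the gene copy, so that copies with the same first number share 1 mature sequence.

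Values are normalised reads, which are reads divided by 1 size factor per library. Vesicle libraries held 1881080 to 3382605 reads assigned to features, of which 50060 to 109913 lay in class II genes. Cell libraries held 1188388 to 1804089 and 29136 to 62661. One read equals 1.17 to 1.89 normalised reads in vesicle libraries and 0.477 to 0.824 in cell libraries. A gene was tested where it reached 10 normalised reads in at least 3 of the libraries compared. It is said to have risen or fallen where limma's moderated test on log2(normalised reads + 1) gave an adjusted p under 0.05 over all features. Fold changes below are on this scale, each with its standard error (SE), and all tests are two-sided. In pooled vesicles, fewer vesicles of a kind and less of an RNA per vesicle cannot be told apart.

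In all, 60 class II genes of 40 mature tRNAs were tested in at least 1 comparison: 27 serine, 31 leucine and 2 selenocysteine genes. The other 12 genes never exceeded 13 reads in a library, and RefSeq did not place 10 of them. They were Leu-AAG-5-1, Leu-AAG-6-1, Leu-AAG-7-1, Leu-CAA-5-1, Leu-CAA-6-1, Leu-CAA-7-1, Leu-TAA-5-1, Leu-TAA-chr11-11, Leu-TAG-4-1, Leu-CTA-chr5-1, Ser-AGA-6-1 and SeC-TCA-3-1. The low Ser-AGA-5-1 entered comparisons with cells but not those among vesicles.

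Several genes had nearly the same counts as each other, and their rows are not taken as independent. Pairs of genes were linked where each had at least 50 reads and both counts were within 10% of each other in every vesicle library, and linked genes form a near-equal set. The largest set held 10 serine genes of 5 mature tRNAs and 2 anticodons: Ser-AGA-1-1, the 6 copies of Ser-AGA-2, Ser-AGA-4-1, Ser-TGA-2-1 and Ser-TGA-3-1. Within it counts differed by at most 16.8% in a vesicle library and 55.3% in a cell library. The 3 copies of Leu-AAG-1 formed a set with Leu-TAG-1-1, again across 2 anticodons. Further sets were the 4 copies of Leu-AAG-2, the 7 copies of Leu-CAG-1, both copies of Leu-CAG-2, Ser-GCT-4-1 with Ser-GCT-4-2, and both copies of Leu-CAA-1 with Leu-CAA-2-1. Reads of 50 bases are shorter than every class II gene, so full-length tRNAs and fragments cannot be told apart here, and how reads that match several genes were counted is not given in the sources used here. Beside the main count of class II genes in each comparison, the number of mature tRNAs is given too. A mature tRNA takes the call of its copy with the highest mean.

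Among tRNA reads, class II genes took a smaller share in vesicles than in cells. With every gene row counted, they held 4.28% ± 0.264 of tRNA reads in ATG7-/- vesicles, 4.91% ± 0.0666 in ATG12-/- vesicles and 5.25% ± 0.0738 in wild type vesicles (SD, n = 3 each). The share was 10.9% ± 1.59 in ATG7-/- cells, 10.3% ± 1.5 in ATG12-/- cells and 10.1% ± 0.335 in wild type cells. The highest vesicle library, at 5.30%, lay below the lowest cell library, at 8.55%. Within vesicles, each ATG7-/- library lay below each ATG12-/- library, and each of these below each wild type library. A share within a library does not depend on the scaling between libraries. Of all reads, class II genes held 3.43% ± 0.207 in ATG7-/- vesicles, 2.89% ± 0.140 in ATG12-/- vesicles and 2.62% ± 0.291 in wild type vesicles, and 2.92% ± 0.663 in ATG7-/- cells, 3.22% ± 0.411 in ATG12-/- cells and 2.39% ± 0.159 in wild type cells.

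Serine AGA and TGA took larger shares of class II reads in vesicles than in cells. Each mature tRNA was counted once for these shares, which are shares of class II reads and are not divided by gene length. The near-equal serine set spans 5 mature tRNAs, and whether the same reads were counted for several of them is not known here. Serine AGA took 32.5% ± 1.09 in ATG7-/- vesicles, 32.6% ± 0.566 in ATG12-/- vesicles and 26.3% ± 1.98 in wild type vesicles (SD, n = 3 each). It took 3.96% ± 0.891, 3.24% ± 0.185 and 2.78% ± 0.156 in the cells of the same 3 genotypes. Serine TGA, with genes in the same near-equal set, took 23.4% ± 0.672, 23.3% ± 0.307 and 19.8% ± 1.02 in ATG7-/-, ATG12-/- and wild type vesicles and 5.50% ± 0.865, 4.53% ± 0.150 and 5.45% ± 0.0719 in ATG7-/-, ATG12-/- and wild type cells. For both anticodons every knockout vesicle library lay above every wild type vesicle library, and every vesicle library above every cell library.

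Serine GCT, ACT and CGA took smaller shares in vesicles than in cells, though CGA reads a UCN codon as AGA and TGA do. Serine GCT took 3.66% ± 0.235 in ATG7-/- vesicles, 4.40% ± 0.131 in ATG12-/- vesicles and 5.63% ± 0.429 in wild type vesicles, against 16.6% ± 3.83, 16.3% ± 1.34 and 20.6% ± 1.05 in ATG7-/-, ATG12-/- and wild type cells. Serine ACT took 0.135% ± 0.0181, 0.158% ± 0.0403 and 0.238% ± 0.0526 in ATG7-/-, ATG12-/- and wild type vesicles and 3.74% ± 0.306, 4.54% ± 0.247 and 4.95% ± 0.222 in ATG7-/-, ATG12-/- and wild type cells. Neither anticodon had a vesicle library within the range of its cell libraries. Serine CGA took 2.65% ± 0.169, 2.53% ± 0.129 and 2.82% ± 0.139 in ATG7-/-, ATG12-/- and wild type vesicles and 5.02% ± 0.623, 4.61% ± 0.682 and 4.96% ± 0.625 in ATG7-/-, ATG12-/- and wild type cells. Over all serine anticodons the share was 62.3% ± 1.82, 63.0% ± 0.885 and 54.8% ± 3.47 in ATG7-/-, ATG12-/- and wild type vesicles and 34.9% ± 5.43, 33.2% ± 2.10 and 38.7% ± 1.99 in ATG7-/-, ATG12-/- and wild type cells. With each mature tRNA counted once, serine thus outweighed leucine in every vesicle library and leucine outweighed serine in every cell library. The near-equal serine set enters this sum with 5 mature tRNAs of nearly the same counts. The order in vesicles depends on counting each of them, and shares with the set counted once were not computed. Summed over all gene rows instead, leucine outweighed serine in wild type vesicle replicates 2 and 3 as well.

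Among leucine anticodons, AAG took 17.4% ± 0.957 in ATG7-/- vesicles, 16% ± 0.420 in ATG12-/- vesicles and 20.3% ± 1.95 in wild type vesicles. In cells it took 24.7% ± 5.66, 25.9% ± 3.44 and 18.8% ± 0.318, so that its shares in vesicles and cells overlapped. TAG took 11.6% ± 0.677, 11.4% ± 0.342 and 13.8% ± 1.08 in ATG7-/-, ATG12-/- and wild type vesicles and 21.3% ± 3.01, 23.2% ± 0.314 and 22.4% ± 2.36 in ATG7-/-, ATG12-/- and wild type cells. CAG took 2.33% ± 0.169, 3.04% ± 0.0643 and 3.70% ± 0.352 in ATG7-/-, ATG12-/- and wild type vesicles and 8.09% ± 0.818, 9.39% ± 1.16 and 10.6% ± 0.410 in ATG7-/-, ATG12-/- and wild type cells. For TAG and CAG every cell library exceeded every vesicle library. TAA, the least read leucine anticodon of those tested, took 0.209% ± 0.00566, 0.256% ± 0.0202 and 0.371% ± 0.0325 in ATG7-/-, ATG12-/- and wild type vesicles and 2.29% ± 0.503, 1.72% ± 0.136 and 2.33% ± 0.279 in ATG7-/-, ATG12-/- and wild type cells. CAA took 2.36% ± 0.261, 2.37% ± 0.0752 and 3.36% ± 0.383 in ATG7-/-, ATG12-/- and wild type vesicles and 5.55% ± 0.233, 5.54% ± 0.699 and 4.71% ± 0.183 in ATG7-/-, ATG12-/- and wild type cells.

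**Figure D1:**
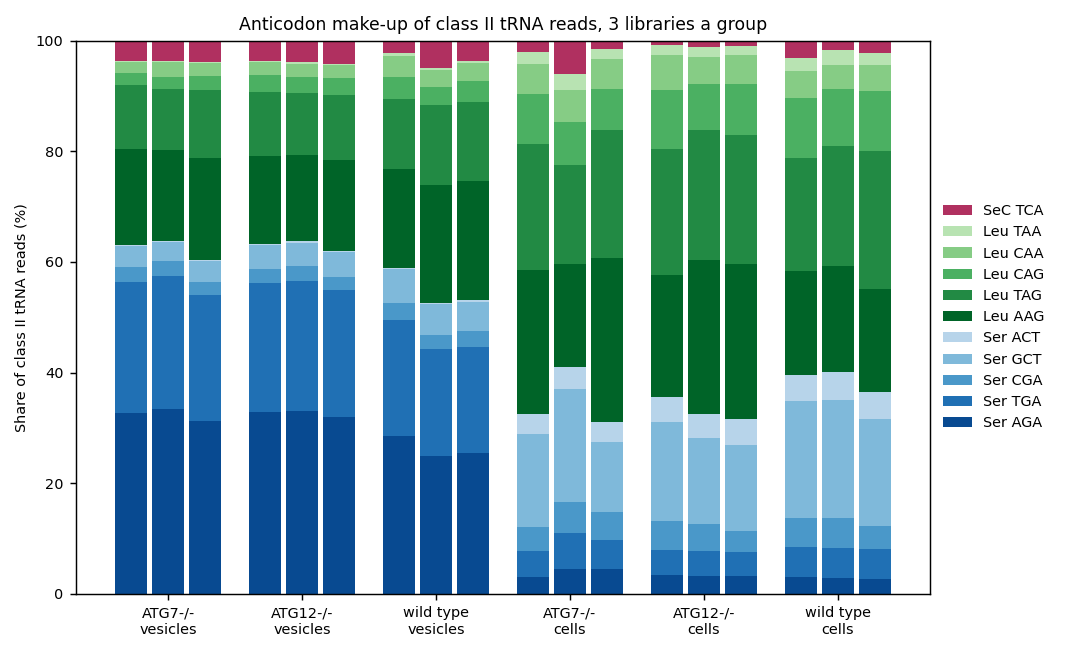
Share of class II tRNA reads (percent, vertical axis) taken by each anticodon in each of the 18 libraries, 3 bars a group, with each mature tRNA counted once. Serine AGA and TGA (dark blues) take 32.5% and 23.4% in ATG7-/- vesicles, against 3.96% and 5.50% in ATG7-/- cells.

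One wild type vesicle library stood apart for some class II genes. Leu-AAG-3-1 had 347, 1012 and 998 normalised reads in wild type vesicle replicates 1, 2 and 3, and SeC-TCA-1-1 had 796, 1893 and 1371. Replicate 1 also had the highest serine share of the 3, 58.8%, 52.6% and 53.0%. In ATG7-/- cells, SeC-TCA-1-1 had 278, 808 and 233, and replicate 2 was the high one. Its leucine share was the lowest of the 3, 65.5%, 52.9% and 67.5%.

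ATG7-/- vesicles were compared with wild type vesicles to ask whether class II tRNAs in vesicles differ between the ATG7-/- clone and wild type. LC3 attachment itself is not measured by small RNA reads. Serine tRNAs that read UCN codons gave the largest rises, most leucine AAG and TAG genes rose by less, and 1 gene each of the AAG and AGA anticodons fell. Of 59 class II genes tested 26 rose, which is 44.1% beside 33.5% of all 850 features, and 2 fell, which is 3.39% beside 28.9%. They came from 39 mature tRNAs, of which 16 rose and 2 fell. The median change was 0.33 over class II genes, 0.48 over the other tRNA genes and 0.11 over all features. Among other tRNA genes 215 of 400 rose and 2 fell.

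Ser-AGA-1-1, which reads UCU, had 7088, 7156 and 6653 normalised reads in the 3 ATG7-/- vesicle libraries, against 3546, 3475 and 3335 in wild type vesicles. The lowest knockout library stood well above the highest wild type one. The change was 1.01 (SE 0.09, adjusted p = 6.32e-07). Ser-AGA-4-1 changed by 1.11 (SE 0.09, adjusted p = 3.74e-07) and Ser-TGA-3-1 by 1.06 (SE 0.09), both from the near-equal set. In that set, all 10 genes rose, by 0.97 to 1.11. Ser-TGA-1-1, outside the set, had 208, 196 and 180 in ATG7-/- vesicles and 88.2, 133 and 106 in wild type vesicles, with no overlap and a change of 0.85 (SE 0.17, adjusted p = 0.000772). All 4 TGA genes tested rose. Of the CGA genes, which read UCG, Ser-CGA-1-1 rose with 688, 697 and 614 in ATG7-/- vesicles against 306, 329 and 352 in wild type vesicles, a change of 1.02 (SE 0.12, adjusted p = 7.6e-06). Ser-CGA-2-1 rose too, and Ser-CGA-3-1 (0.27, SE 0.14) and Ser-CGA-4-1 (0.33, SE 0.13) did not pass the test.

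Serine genes for the AGU and AGC codons did not pass the test, with 1 exception. Of 8 GCT genes, Ser-GCT-6-1 passed, with 624, 538 and 614 in ATG7-/- vesicles and 463, 436 and 376 in wild type vesicles, a change of 0.48 (SE 0.13, adjusted p = 0.00519). The most read of them, Ser-GCT-3-1, had 757, 674 and 773 in ATG7-/- vesicles and 864, 791 and 694 in wild type vesicles, and its change was -0.09 (SE 0.12, adjusted p = 0.542). Ser-ACT-1-1 had 88.3, 94.6 and 71.6 in ATG7-/- vesicles against 66.5, 92.6 and 109 in wild type vesicles, a change of -0.06 (SE 0.23, adjusted p = 0.854).

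Leu-AAG-2-4, which reads CUU, had 5788, 5522 and 6010 in ATG7-/- vesicles and 3073, 3685 and 3500 in wild type vesicles. The groups did not overlap, and the change was 0.76 (SE 0.10, adjusted p = 2.71e-05). Its 3 sister copies rose by as much, and the 3 copies of Leu-AAG-1 rose with Leu-TAG-1-1, whose change was 0.47 (SE 0.12, adjusted p = 0.00320). All 3 TAG genes tested rose, Leu-TAG-3-1 by 0.61 (SE 0.12, adjusted p = 0.00051). None of the 10 CAG, 5 CAA and 4 TAA genes tested passed the test. Leu-CAG-2-1 changed by 0.14 (SE 0.12), Leu-CAA-1-2 by 0.25 (SE 0.13) and Leu-TAA-1-1 by -0.20 (SE 0.17).

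Both genes that fell share their anticodon with genes that rose. Ser-AGA-3-1 had 102, 102 and 88.9 in ATG7-/- vesicles and 158, 166 and 185 in wild type vesicles, without overlap. Its change was -0.79 (SE 0.15, adjusted p = 0.000341). Leu-AAG-3-1 had 371, 387 and 404 in ATG7-/- vesicles and 347, 1012 and 998 in wild type vesicles, where replicate 1 lay below all ATG7-/- libraries. Its change was -0.86 (SE 0.31, adjusted p = 0.0259). The Leu-AAG-3-1 call was lost without ATG7-/- vesicle replicate 1 (-0.83, adjusted p = 0.0587), ATG7-/- vesicle replicate 3 (-0.90, adjusted p = 0.0527), wild type vesicle replicate 2 (-0.60, adjusted p = 0.107) or wild type vesicle replicate 3 (-0.61, adjusted p = 0.131).

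How libraries are scaled to each other moved many of these calls. Besides the deposited factors, libraries were scaled by their totals and by trimmed mean factors (TMM) from all features, from microRNAs and from the other tRNA genes. In ATG7-/- against wild type vesicles, 15 class II genes rose under all 5 scalings: the 10 serine genes of the near-equal set, Ser-CGA-1-1 and the 4 copies of Leu-AAG-2. Ser-AGA-3-1 and Leu-AAG-3-1 fell under all 5. Over the 5 scalings the change of Ser-AGA-1-1 was 0.50 to 1.01 and that of Leu-AAG-3-1 -1.38 to -0.86. With library totals calls were lost for Leu-TAG-3-1 (0.24, adjusted p = 0.188), Ser-TGA-1-1 (0.47, adjusted p = 0.0516), Ser-GCT-6-1 (0.10, adjusted p = 0.585) and Leu-TAG-1-1 (0.09, adjusted p = 0.636). With library totals 15 class II genes rose and 11 fell. With TMM from other tRNAs, 15 rose and 20 fell, and Leu-TAG-1-1 and Ser-GCT-6-1 turned to -0.05 and -0.04. Of all called features 53.7% were higher, 31.9% with library totals and 23.7% with TMM from other tRNAs. These scalings moved the median change of all features by -0.37 and -0.51, and TMM from all features moved it by -0.20. The number of class II genes that fell was 1, not 2, without any 1 of the 4 libraries named above.

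**Figure D2:**
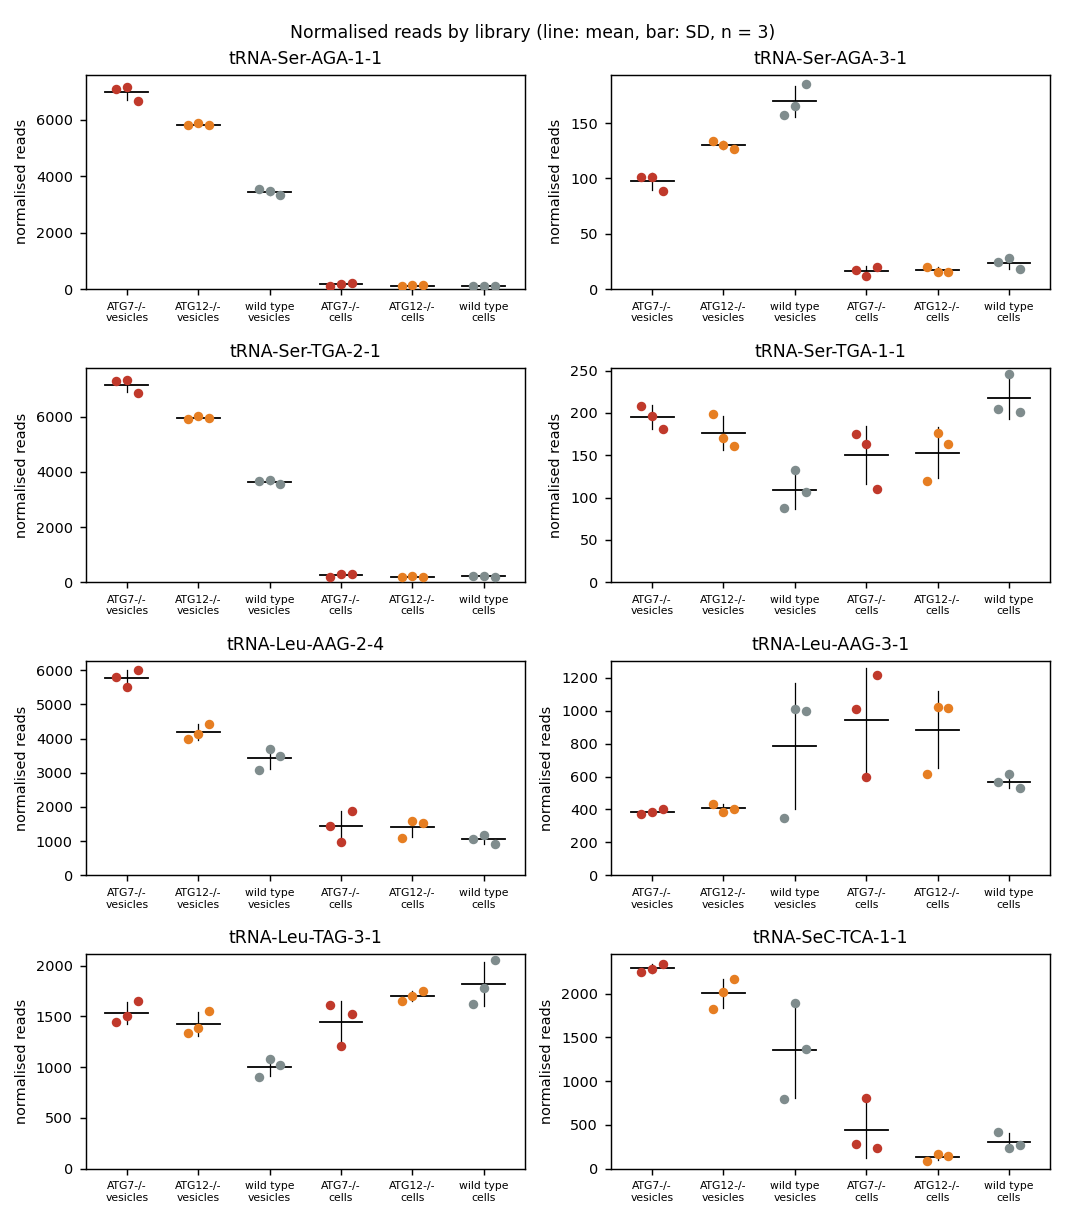
Normalised reads (vertical axis, linear, from 0) of 8 class II genes in each library, by group, with the mean (line) and SD (bar, n = 3). Ser-AGA-1-1 averages 6966 in ATG7-/- vesicles, 5825 in ATG12-/- vesicles and 3452 in wild type vesicles, whereas Ser-AGA-3-1 averages 97.3, 130 and 170.

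ATG12-/- vesicles, compared with the same wild type libraries, gave rises for the 10 serine genes of the near-equal set, Ser-TGA-1-1, Ser-CGA-1-1, Ser-GCT-6-1, Leu-TAG-3-1, the 4 copies of Leu-AAG-2 and SeC-TCA-1-1. Of 59 class II genes 19 rose, which is 32.2% beside 22.6% of all 850 features. None fell by limma's adjusted test, beside 21.1% of all features. At an unadjusted p under 0.05 by limma there were 24 of 59 class II genes in both directions, against 19 called, beside 426 of all 850 features. edgeR called 2 lower and DESeq2 1. The 19 genes came from 11 of 39 mature tRNAs. The median change was 0.15 over class II genes, 0.17 over other tRNA genes and 0.05 over all features. Among other tRNA genes 114 of 400 (28.5%) rose and 35 (8.75%) fell.

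Ser-AGA-1-1 had 5795, 5883 and 5796 in ATG12-/- vesicles and 3546, 3475 and 3335 in wild type vesicles, a change of 0.76 (SE 0.09, adjusted p = 2.94e-05). Ser-AGA-4-1 changed by 0.86 (SE 0.09, adjusted p = 1.83e-05) and Ser-TGA-3-1 by 0.81 (SE 0.09). No library of the knockout overlapped with wild type for any of these. Ser-TGA-1-1 had 199, 170 and 160 in ATG12-/- vesicles against 88.2, 133 and 106 in wild type vesicles, a change of 0.70 (SE 0.17, adjusted p = 0.00499). Ser-CGA-1-1 had 494, 525 and 502 in ATG12-/- vesicles against 306, 329 and 352 in wild type vesicles, a change of 0.62 (SE 0.12, adjusted p = 0.000952). Ser-TGA-4-1, which rose in ATG7-/- vesicles, had 401, 444 and 424 in ATG12-/- vesicles and 354, 474 and 408 in wild type vesicles, and its change was 0.05 (SE 0.14, adjusted p = 0.802). Ser-GCT-6-1 changed by 0.40 (SE 0.13, adjusted p = 0.0217). That call was lost without ATG12-/- vesicle replicate 1 (0.35, adjusted p = 0.0845), ATG12-/- vesicle replicate 3 (0.41, adjusted p = 0.0587) or wild type vesicle replicate 3 (0.32, adjusted p = 0.0989), and under each of the other 4 scalings, where the change was 0.04 to 0.35.

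Leu-TAG-3-1 had 1333, 1391 and 1558 in ATG12-/- vesicles and 906, 1081 and 1026 in wild type vesicles, without overlap and with a change of 0.51 (SE 0.12, adjusted p = 0.00339). Leu-AAG-2-4 had 3986, 4132 and 4433 in ATG12-/- vesicles against 3073, 3685 and 3500 in wild type vesicles, a change of 0.29 (SE 0.10, adjusted p = 0.0347). Its call was lost without ATG12-/- vesicle replicate 1 (0.33, adjusted p = 0.0558), 2 (0.30, adjusted p = 0.0896) or 3 (0.25, adjusted p = 0.138), and without wild type vesicle replicate 1 (0.22, adjusted p = 0.0576) or 3 (0.31, adjusted p = 0.0624). Leu-AAG-1-2 (0.18, SE 0.11) and Leu-TAG-1-1 (0.15, SE 0.12) did not pass the test. Leu-AAG-3-1 had 436, 386 and 402 in ATG12-/- vesicles against 347, 1012 and 998 in wild type vesicles, a change of -0.79 (SE 0.31, adjusted p = 0.0535). Without wild type vesicle replicate 1 it passed the test, with a change of -1.30, adjusted p = 2.94e-06. Ser-AGA-3-1 had 134, 130 and 126 in ATG12-/- vesicles against 158, 166 and 185 in wild type vesicles, with no overlap and a change of -0.38 (SE 0.15, adjusted p = 0.0507). It too passed without wild type vesicle replicate 1 (-0.43, adjusted p = 0.0341).

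Under all 5 scalings, 10 class II genes rose in ATG12-/- vesicles, and all were serine genes of the near-equal set. With library totals 10 class II genes rose and 7 fell. With TMM from all features 13 rose and 2 fell, with TMM from microRNAs 12 and 2, and with TMM from other tRNAs 18 and 1. The change of Ser-AGA-1-1 ranged from 0.40 to 0.76. Among all called features 51.8% were higher, 22% with library totals, 41.0% with TMM from all features and 39.6% with TMM from microRNAs, which moved the median change by -0.35, -0.11 and -0.11. Leu-AAG-2-4 turned to -0.06 with library totals, and Leu-TAG-3-1 and Ser-TGA-1-1 no longer passed the test there (0.15, adjusted p = 0.425, and 0.34, adjusted p = 0.163). The wild type libraries serve both knockouts, so the 2 comparisons are not independent.

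**Figure D3:**
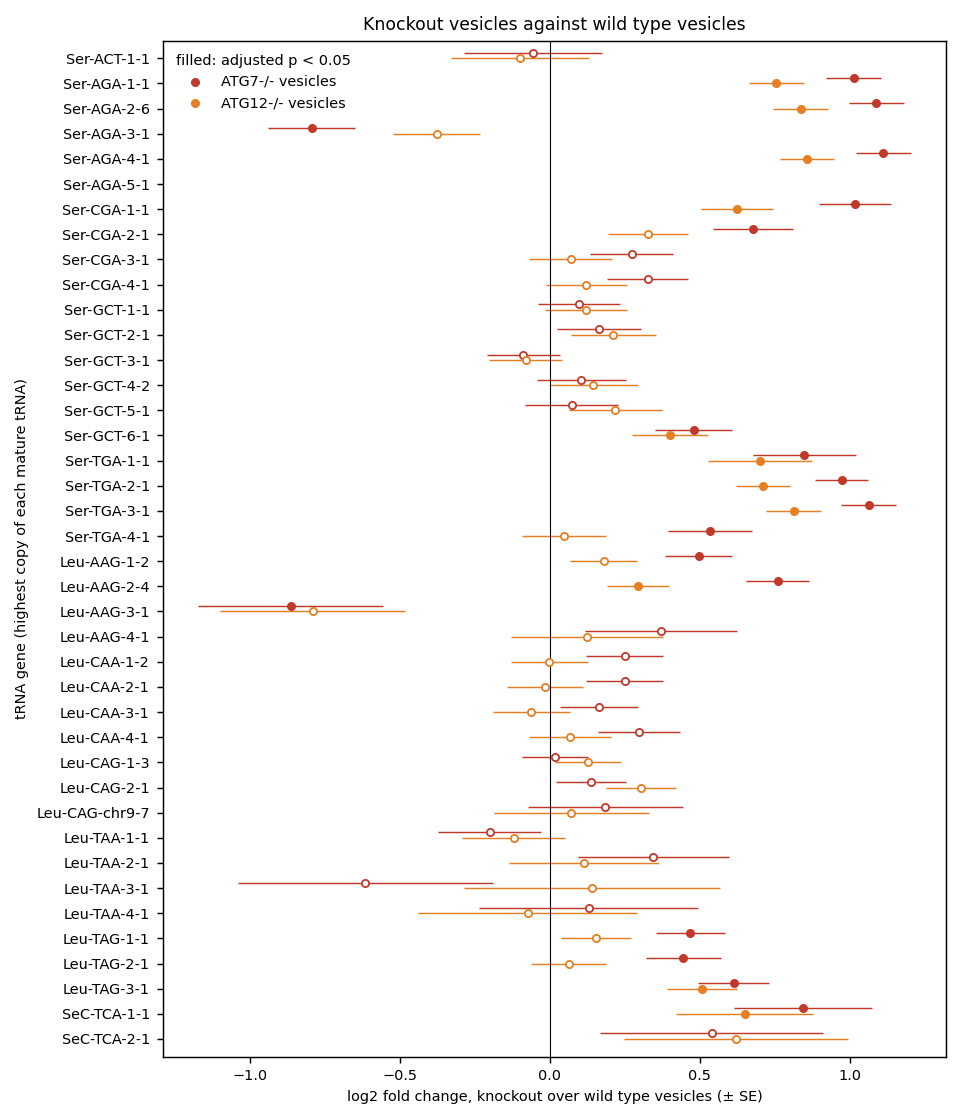
Log2 fold change (horizontal axis, with its SE) of knockout over wild type vesicles for the highest copy of each of 40 mature class II tRNAs, ATG7-/- in red and ATG12-/- in orange, filled where adjusted p is under 0.05; Ser-AGA-5-1 was too low to be tested. Ser-AGA and Ser-TGA genes reach 1.11 in ATG7-/- vesicles and 0.86 in ATG12-/- vesicles, while Ser-AGA-3-1 lies at -0.79 and -0.38.

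ATG12-/- vesicles were also set against ATG7-/- vesicles, a comparison added after the values were seen. Of 59 class II genes 22 were lower in ATG12-/- vesicles, which is 37.3% beside 23.3% of all features, and 1 was higher, beside 26.6%. They came from 39 mature tRNAs, of which 12 were lower and 1 higher. Among other tRNA genes 164 of 400 (41%) were lower and 10 (2.5%) higher. The median difference was -0.20 over class II genes and -0.31 over other tRNA genes. Leu-AAG-2-4 had 3986, 4132 and 4433 in ATG12-/- vesicles and 5788, 5522 and 6010 in ATG7-/- vesicles, a difference of -0.47 (SE 0.10, adjusted p = 0.00254). Ser-TGA-4-1 had 401, 444 and 424 in ATG12-/- vesicles against 658, 545 and 581 in ATG7-/- vesicles, a difference of -0.49 (SE 0.14, adjusted p = 0.0111). Neither gene's groups overlapped. Ser-AGA-3-1 was the gene that was higher, with 134, 130 and 126 in ATG12-/- vesicles and 102, 102 and 88.9 in ATG7-/- vesicles, a difference of 0.42 (SE 0.15, adjusted p = 0.0314). It no longer passed without ATG12-/- vesicle replicate 1, 2 or 3 or ATG7-/- vesicle replicate 1 or 3 (adjusted p = 0.0782, 0.0801, 0.0608, 0.0585 and 0.0933), and Ser-TGA-4-1 without ATG7-/- vesicle replicate 1 (adjusted p = 0.0600).

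These differences were small, and 1 library or 1 scaling decided most of their calls. The number of lower class II genes was 5, 6 and 5 without ATG12-/- vesicle replicate 1, 2 and 3, and 4 and 10 without ATG7-/- vesicle replicate 1 and 2. With library totals 6 were lower, with TMM from all features 5 and with TMM from microRNAs 8. With TMM from other tRNAs none was lower and 21 were higher. No class II gene kept a call under all 5 scalings. That scaling moved the median change of all features by 0.47 and the share of higher calls among all features to 85.1%, against 53.3% with the deposited factors.

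Knockout cells were likewise set against wild type cells. In ATG7-/- against wild type cells 9 of 60 class II genes rose, which is 15% beside 8.44% of all 853 features, and none fell, beside 8.32%. At an unadjusted p under 0.05 by limma there were 26 of 60 class II genes in both directions, beside 294 of all 853 features. Neither edgeR nor DESeq2 called any class II gene lower, and without ATG7-/- cell replicate 1 limma called 1 lower. The genes that rose were the 6 copies of Ser-AGA-2, Ser-AGA-4-1, Leu-CAA-3-1 and Leu-CAA-4-1, which come from 4 mature tRNAs. The median change was 0.20 over class II genes, -0.20 over other tRNA genes and -0.09 over all features. Of 389 other tRNA genes, 15 (3.86%) rose and 55 (14.1%) fell.

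Ser-AGA-4-1 had 134, 183 and 243 in ATG7-/- cells and 121, 102 and 86.9 in wild type cells, a change of 0.82 (SE 0.20, adjusted p = 0.0145). The groups did not overlap, though the knockout libraries were spread widely. Leu-CAA-3-1, a UUG reader, had 180, 183 and 203 in ATG7-/- cells against 134, 137 and 103 in wild type cells, a change of 0.61 (SE 0.14, adjusted p = 0.0137). Ser-AGA-1-1 had 111, 187 and 215 in ATG7-/- cells against 120, 108 and 95.6 in wild type cells, and its change of 0.61 (SE 0.21, adjusted p = 0.0571) did not pass. Leu-AAG-3-1 had 1012, 599 and 1216 in ATG7-/- cells against 565, 613 and 531 in wild type cells, a change of 0.67 (SE 0.25, adjusted p = 0.0801). Without wild type cell replicate 3 the calls of Ser-AGA-4-1 (adjusted p = 0.0695) and Leu-CAA-3-1 (adjusted p = 0.0527) were lost, that of Ser-AGA-4-1 also without ATG7-/- cell replicate 3 (adjusted p = 0.0509). The count of genes that rose was 1 without wild type cell replicate 3, 16 without ATG7-/- cell replicate 2 and 5 without ATG7-/- cell replicate 3. Under TMM from other tRNAs 20 rose and none fell. Under TMM from microRNAs none rose and 21 fell, which shifted the median over features by -0.44, and no class II gene was called under all 5 scalings. Of all called features 50.4% were higher, 62.2% with library totals, 4.71% with TMM from microRNAs and 79.8% with TMM from other tRNAs.

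In ATG12-/- against wild type cells 5 of 60 class II genes rose, which is 8.33% beside 7.50% of all features, and 2 fell, which is 3.33% beside 18.2%. By the highest copy of each of 40 mature tRNAs, 3 rose and 2 fell. Among other tRNA genes 42 of 389 (10.8%) rose and 54 (13.9%) fell. The class II genes that rose were Leu-AAG-1-1, Leu-AAG-1-2, Leu-AAG-2-1, Leu-CAA-2-1 and Ser-AGA-4-1. The other copies of Leu-AAG-1 and Leu-AAG-2 did not pass the test. SeC-TCA-1-1 and Leu-TAA-1-1 fell. Leu-TAA-1-1, a UUA reader, had 160, 175 and 154 in ATG12-/- cells and 249, 268 and 193 in wild type cells, a change of -0.53 (SE 0.16, adjusted p = 0.0335). Leu-CAA-2-1 had 268, 266 and 291 in ATG12-/- cells against 203, 191 and 191 in wild type cells, a change of 0.49 (SE 0.12, adjusted p = 0.0138). The groups did not overlap in either gene. Leaving out 1 library moved the number of genes that rose between 0 and 10, and left 0 or 1 that fell: without ATG12-/- cell replicates 1, 2 and 3 there were 10, 1 and 0 that rose, and without wild type cell replicates 1, 2 and 3 there were 3, 0 and 1. Leu-TAA-1-1 lost its call without ATG12-/- cell replicate 1 (adjusted p = 0.0836), 2 (adjusted p = 0.0526) or 3 (adjusted p = 0.0964) and wild type cell replicate 1 (adjusted p = 0.115) or 2 (adjusted p = 0.128). Leu-CAA-2-1 lost its call without ATG12-/- cell replicate 3 (adjusted p = 0.0570) or wild type cell replicate 2 (adjusted p = 0.0534). With library totals 13 class II genes rose and none fell, with TMM from all features 7 and none, and with TMM from microRNAs none rose and 3 fell. No class II gene was called under all 5 scalings. Among all called features 29.2% were higher, 62.6% with library totals, 41.5% with TMM from all features and 7.46% with TMM from microRNAs.

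Vesicles were next set against the cells of the same genotype, which gives the class II tRNAs that are more or less abundant in what the cultures released. In ATG7-/- 40 of 60 class II genes were higher in vesicles, which is 66.7% beside 40.0% of all 905 features, and 9 were lower, which is 15% beside 42.8%. They came from 23 and 9 of 40 mature tRNAs. In ATG12-/-, 33 were higher (55.0% beside 39.2%) and 10 lower (16.7% beside 41.1%), from 20 and 10 mature tRNAs. In wild type, 33 were higher (55.0% beside 38.9%) and 12 lower (20.0% beside 42.9%), from 22 and 11 mature tRNAs. The median differences over class II genes were 1.04 in ATG7-/-, 0.97 in ATG12-/- and 1.16 in wild type, beside -0.03, -0.10 and -0.13 over all features. Among the 420 other tRNA genes, 63.1%, 55.7% and 52.4% were higher and 18.6%, 24.5% and 30.7% lower in the same genotype order. Their median differences were 1.15, 0.82 and 0.53.

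The near-equal serine set gave the widest differences in each genotype. Ser-AGA-1-1 had 3546, 3475 and 3335 in wild type vesicles against 120, 108 and 95.6 in wild type cells, with no overlap. The difference was 5.39 (SE 0.17, adjusted p = 5.5e-18) in ATG7-/-, 5.53 (SE 0.17, adjusted p = 7.11e-18) in ATG12-/- and 4.99 (SE 0.17, adjusted p = 3.64e-17) in wild type. Ser-TGA-2-1 had 3679, 3705 and 3558 in wild type vesicles against 224, 214 and 194 in wild type cells, a difference of 4.11 (SE 0.14). In both genes the lowest vesicle library of any genotype exceeded the highest cell library of any genotype.

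At the other end, Ser-ACT-1-1 had 88.3, 94.6 and 71.6 in ATG7-/- vesicles and 530, 555 and 575 in ATG7-/- cells. It had 67.6, 107 and 75.4 in ATG12-/- vesicles and 584, 669 and 727 in ATG12-/- cells, and 66.5, 92.6 and 109 in wild type vesicles against 654, 719 and 597 in wild type cells. No vesicle library came near a cell library. The differences were -2.70 (SE 0.19, adjusted p = 7.18e-12) in ATG7-/-, -2.99 (SE 0.19, adjusted p = 1.39e-12) in ATG12-/- and -2.89 (SE 0.19, adjusted p = 3.04e-12) in wild type. Ser-GCT-2-1, also a reader of AGU and AGC, was lower in vesicles too, with differences of -1.33 (SE 0.14) in ATG7-/-, -1.22 (SE 0.14) in ATG12-/- and -1.61 (SE 0.14) in wild type. The leucine UUA readers Leu-TAA-1-1 and Leu-TAA-3-1 were lower in each genotype, with wild type differences of -1.44 (SE 0.17) and -1.56 (SE 0.31). Leu-TAA-3-1 rests on few reads, 3 to 11 in a vesicle library. It had 7.23, 13.8 and 13.1 normalised reads in wild type vesicles against 37.6, 36.9 and 29.2 in wild type cells. Ser-AGA-5-1, the short serine gene, reached the minimum only through cell libraries, so that its lower call follows from the filter and nothing is read from it; it is 1 of the lower genes counted in each genotype. It stood at 1.89 normalised reads in wild type vesicles against 10.2 in wild type cells.

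Genes of 1 anticodon did not move as one. Of 8 GCT genes tested in wild type, 5 were lower in vesicles and Ser-GCT-6-1 was higher, with 463, 436 and 376 in wild type vesicles against 102, 78.5 and 84.0 in wild type cells, a difference of 2.26 (SE 0.16, adjusted p = 2e-11). Ser-GCT-3-1 had 864, 791 and 694 in wild type vesicles against 842, 842 and 675 in wild type cells, a difference of -0.00 (SE 0.14, adjusted p = 0.982). Ser-TGA-1-1 was lower, with 88.2, 133 and 106 in wild type vesicles against 205, 245 and 201 in wild type cells, a difference of -1.0 (SE 0.19, adjusted p = 6.82e-05), beside 3 TGA genes that were higher. Leu-TAG-3-1 was lower, with 906, 1081 and 1026 in wild type vesicles against 1626, 1778 and 2059 in wild type cells, a difference of -0.85 (SE 0.14, adjusted p = 6.07e-06). Leu-TAG-1-1 was higher, by 2.14 (SE 0.22, adjusted p = 8.28e-09). Ser-CGA-3-1 was lower, with a difference of -0.67 (SE 0.16), while the other 3 CGA genes were higher, Ser-CGA-4-1 by 1.97 (SE 0.17). Among AAG genes, Leu-AAG-2-4 was higher in vesicles by 1.70 (SE 0.19) in wild type. Leu-AAG-3-1 differed by 0.31 (SE 0.30, adjusted p = 0.350) in wild type, and without wild type vesicle replicate 1 the value was 0.82, adjusted p = 0.00325.

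The TGA and TAG splits were called in wild type only. In each knockout 3 TGA and 2 TAG genes were higher in vesicles and none lower. In the knockouts Leu-AAG-3-1 was lower in vesicles, with differences of -1.22 (SE 0.30, adjusted p = 0.000862) in ATG7-/- and -1.08 (SE 0.30, adjusted p = 0.00267) in ATG12-/-. The 5 Leu-CAA genes were all higher in vesicles in ATG7-/- and wild type, and 3 of them in ATG12-/-. These directions depended on the scaling: under at least 1 of the 5, each of these genes was below 0 in each genotype. For Leu-CAA-1-2 the difference over the scalings was -1.49 to 0.54 in ATG7-/-, -1.99 to 0.10 in ATG12-/- and -1.13 to 0.38 in wild type, and for Leu-CAA-2-1 it was -1.41 to 0.62, -1.96 to 0.13 and -0.87 to 0.64 in the same order. Leu-CAA-3-1 differed by 1.02 (SE 0.14), 1.11 (SE 0.14) and 1.47 (SE 0.14) in ATG7-/-, ATG12-/- and wild type, and over the 5 scalings by -0.95 to 1.07, -0.98 to 1.11 and -0.04 to 1.47. Among CAG genes, Leu-CAG-2-1 had 717, 624 and 624 in wild type vesicles against 768, 756 and 724 in wild type cells, a difference of -0.20 (SE 0.12, adjusted p = 0.140). In ATG7-/-, 8 of the 10 CAG genes were called higher, in ATG12-/- 3 and in wild type 1. The 7 copies of Leu-CAG-1 among the 8 were each called higher under 2 scalings and lower under 2, Leu-CAG-1-1 with -1.60 to 0.43. The test of the difference between changes called none of the 10 CAG genes in either knockout. The gene called in wild type was Leu-CAG-chr9-7, at 41.9, 51.2 and 35.0 in wild type vesicles against 14.0, 8.58 and 3.65 in wild type cells, a difference of 2.3 (SE 0.42); it is named here after its values were seen, and RefSeq did not place it.

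The zero of these comparisons depends on the scaling. Against the deposited factors, library totals moved the median difference of all features by -1.96 in ATG7-/-, -2.08 in ATG12-/- and -1.51 in wild type, and TMM from other tRNAs by -1.35, -0.74 and -0.66. With library totals, 12 class II genes were higher and 33 lower in ATG7-/-, 13 and 38 in ATG12-/-, and 17 and 30 in wild type. Of all called features 48.3%, 48.8% and 47.6% were higher with the deposited factors, and 17.7%, 14.3% and 19.4% with library totals. With TMM from other tRNAs the shares were 26.8%, 33.3% and 34.7%. Under all 5 scalings, 12 class II genes were higher and 9 lower in ATG7-/-, 13 and 10 in ATG12-/-, and 17 and 12 in wild type. In each genotype the genes that were higher under all 5 included the near-equal serine set, Ser-AGA-3-1 and Ser-GCT-6-1. Those lower under all 5 in each genotype included Ser-ACT-1-1, Ser-CGA-3-1, Ser-GCT-2-1, Ser-GCT-4-2, Ser-GCT-5-1, Leu-TAA-1-1 and Leu-TAA-3-1, beside Ser-AGA-5-1, which the filter fixed. Over the 5, Ser-AGA-1-1 ranged from 3.48 to 4.99 in wild type and Ser-ACT-1-1 from -4.39 to -2.89. Library totals ended the wild type calls of Leu-AAG-2-4 (0.18, adjusted p = 0.422), Ser-CGA-1-1 (0.01, adjusted p = 0.957) and SeC-TCA-1-1 (0.58, adjusted p = 0.117), and turned Leu-AAG-3-1 to -1.21. They also turned Leu-TAG-1-1 to -0.07 in ATG7-/- and -0.48 in ATG12-/-, and Leu-AAG-2-4 to -0.51 in ATG12-/-.

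**Figure D4:**
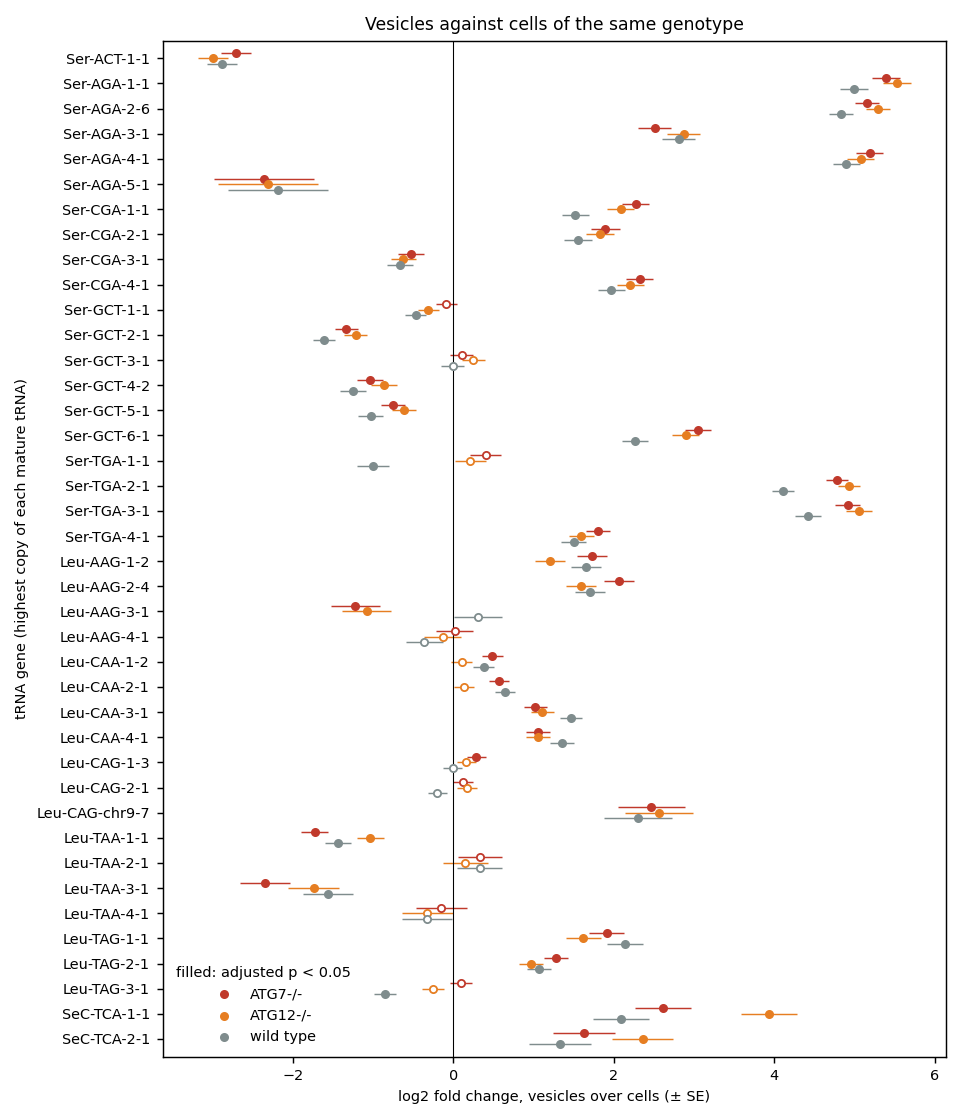
Log2 fold change (horizontal axis, with its SE) of vesicles over cells for the highest copy of each of 40 mature class II tRNAs, with ATG7-/- in red, ATG12-/- in orange and wild type in grey, filled where adjusted p is under 0.05. Values run from -2.89 for Ser-ACT-1-1 to 4.99 for Ser-AGA-1-1 in wild type, where genes of 1 anticodon (GCT, TGA and TAG) lie on both sides of 0.

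Ratios within a library show, without any scaling, how far genes of 1 anticodon stood apart, though not the sign of either gene's change. Each pair below shares an anticodon, and all genes are 82 bases long except Ser-GCT-6-1, with 84. Reads of Leu-AAG-3-1 as a share of those of Leu-AAG-2-4 were 6.40%, 7.0% and 6.73% in ATG7-/- vesicles, 10.9%, 9.34% and 9.06% in ATG12-/- vesicles and 11.3%, 27.5% and 28.5% in wild type vesicles. In cells the means were 65.4% ± 4.98 in ATG7-/-, 62.4% ± 5.02 in ATG12-/- and 54.2% ± 2.91 in wild type (SD, n = 3 each). Copies of Leu-AAG-2 differ in cells. Leu-AAG-2-4 averaged 1433, 1403 and 1055 normalised reads in ATG7-/-, ATG12-/- and wild type cells, against 1194, 1179 and 716 for Leu-AAG-2-1. The level of the cell ratios and their order between genotypes therefore depend on the copy taken. The ATG7-/- and ATG12-/- vesicle libraries lay at or below 10.9%, below the wild type ones, of which replicate 1 came nearest. Ser-AGA-3-1 stood at 1.43%, 1.42% and 1.34% of Ser-AGA-1-1 in ATG7-/- vesicles, 2.31%, 2.21% and 2.18% in ATG12-/- vesicles and 4.44%, 4.78% and 5.56% in wild type vesicles. These 3 groups did not overlap with each other. In cells it was 10.5% ± 4.60 in ATG7-/-, 13.7% ± 2.82 in ATG12-/- and 21.8% ± 3.86 in wild type.

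Ser-TGA-1-1 stood at 2.72% ± 0.122 of Ser-TGA-2-1 in ATG7-/- vesicles, 2.96% ± 0.357 in ATG12-/- vesicles and 2.99% ± 0.593 in wild type vesicles, against 60.4% ± 26.0, 78.3% ± 11.4 and 103% ± 11.4 in ATG7-/-, ATG12-/- and wild type cells. The genotypes overlapped within vesicles, and vesicles and cells did not overlap. Ser-GCT-6-1 stood at 82.4%, 79.9% and 79.4% of Ser-GCT-3-1 in ATG7-/- vesicles, 79.6%, 74.1% and 73.8% in ATG12-/- vesicles and 53.5%, 55.1% and 54.2% in wild type vesicles. All knockout vesicle libraries were above all wild type ones, and the means were 10.6% ± 3.52, 12.1% ± 1.90 and 11.3% ± 1.71 in ATG7-/-, ATG12-/- and wild type cells. Leu-TAG-3-1 stood at 32.2% ± 2.12 of Leu-TAG-1-1 in ATG7-/- vesicles, 37.3% ± 2.48 in ATG12-/- vesicles and 29.1% ± 1.52 in wild type vesicles. It was 116% ± 29.7, 141% ± 46.2 and 234% ± 38.6 in ATG7-/-, ATG12-/- and wild type cells, with every cell library above every vesicle library. With 3 libraries a group, an exact permutation test of 1 ratio cannot give a p below 0.1, and none was made. These 5 genes were followed through all comparisons after their values were seen.

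Whether a knockout changed vesicles and cells by different amounts was tested as the difference between both changes. For ATG7-/-, 6 of 60 class II genes changed more in the positive direction in vesicles than in cells, which is 10.0% beside 26.3% of all 905 features, and 1 the other way, beside 28.7%. By the highest copy of each of 40 mature tRNAs the counts were 5 and 1. Among other tRNA genes the counts were 222 and 10 of 420. Ser-TGA-1-1 averaged 195 in ATG7-/- vesicles and 109 in wild type vesicles, but 150 in ATG7-/- cells and 217 in wild type cells. Its difference between changes was 1.40 (SE 0.27, adjusted p = 0.000234). Leu-AAG-3-1 went the other way, with 387 in ATG7-/- vesicles and 786 in wild type vesicles, and 942 in ATG7-/- cells and 570 in wild type cells, a difference of -1.53 (SE 0.43, adjusted p = 0.00476). These were the class II genes called under all 5 scalings. Leu-TAG-3-1 differed by 0.95 (SE 0.19, adjusted p = 0.000328), Ser-GCT-6-1 by 0.80 (SE 0.23, adjusted p = 0.00605) and Ser-TGA-2-1 by 0.67 (SE 0.20, adjusted p = 0.00700). With library totals the last 3 no longer passed (adjusted p = 0.0798, 0.319 and 0.507), and Ser-TGA-2-1 turned to -0.03 with TMM from other tRNAs. Ser-AGA-1-1 differed by 0.40 (SE 0.24, adjusted p = 0.164). The class II counts in the positive and the other direction were 1 and 6 with library totals, 3 and 2 with TMM from all features, 32 and 1 with TMM from microRNAs and 1 and 16 with TMM from other tRNAs. The count of 6 rose to 15 without ATG7-/- cell replicate 3. The count of 1 was 3 without ATG7-/- vesicle replicate 2 and 2 without wild type vesicle replicate 1 or wild type cell replicate 2. Among all called features 47.8% were higher, 17.9% with library totals, 63.7% with TMM from microRNAs and 7.86% with TMM from other tRNAs.

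For ATG12-/-, 8 class II genes changed more in the positive direction in vesicles, which is 13.3% beside 14.4% of all features, and 2 the other way, which is 3.33% beside 12.0%. By the highest copy of each of 40 mature tRNAs the counts were 6 and 2. Among other tRNA genes 70 of 420 (16.7%) went the positive way and 20 (4.76%) the other. SeC-TCA-1-1 differed by 1.84 (SE 0.49, adjusted p = 0.00904) and Leu-AAG-3-1 by -1.39 (SE 0.43, adjusted p = 0.0210), and both were called under all 5 scalings. Ser-TGA-1-1 differed by 1.21 (SE 0.27, adjusted p = 0.00290) and Ser-TGA-2-1 by 0.82 (SE 0.20, adjusted p = 0.00471), both lost with library totals (adjusted p = 0.0888 and 0.467). Leu-TAG-3-1 differed by 0.60 (SE 0.19, adjusted p = 0.0266), Ser-GCT-6-1 by 0.63 (SE 0.23, adjusted p = 0.0460) and Leu-CAA-2-1, with 301 in ATG12-/- vesicles and 305 in wild type vesicles, by -0.51 (SE 0.18, adjusted p = 0.0393). Leu-AAG-3-1 lost its call without wild type vesicle replicate 2 (-1.13, adjusted p = 0.0662), wild type vesicle replicate 3 (-1.14, adjusted p = 0.0761), ATG12-/- cell replicate 2 (-1.26, adjusted p = 0.0542) or ATG12-/- cell replicate 3 (-1.27, adjusted p = 0.0541). The call of Leu-CAA-2-1 was lost without each of the 12 libraries in turn (adjusted p = 0.0511 to 0.0936), that of Ser-GCT-6-1 without 9 of them (up to 0.131), and that of Leu-TAG-3-1 without ATG12-/- vesicle replicate 3, ATG12-/- cell replicate 1 or 2, or wild type cell replicate 3 (adjusted p = 0.0738, 0.0533, 0.0517 and 0.0735). Leaving out 1 library gave 4 to 8 genes in the positive direction. It gave 4 or 5 without any 1 of the ATG12-/- vesicle libraries, wild type vesicle replicate 3, any 1 of the ATG12-/- cell libraries, or wild type cell replicate 1 or 2. In the other direction it gave 1 or 0 without each library but ATG12-/- cell replicate 1. With library totals 1 class II gene changed more in the positive direction and 14 the other way. The counts were 3 and 2 with TMM from all features, 5 and 1 with TMM from microRNAs and 4 and 2 with TMM from other tRNAs. Of all called features 54.4% were higher, 6.94% with library totals, 32.2% with TMM from all features and 43.1% with TMM from other tRNAs.

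**Figure D5:**
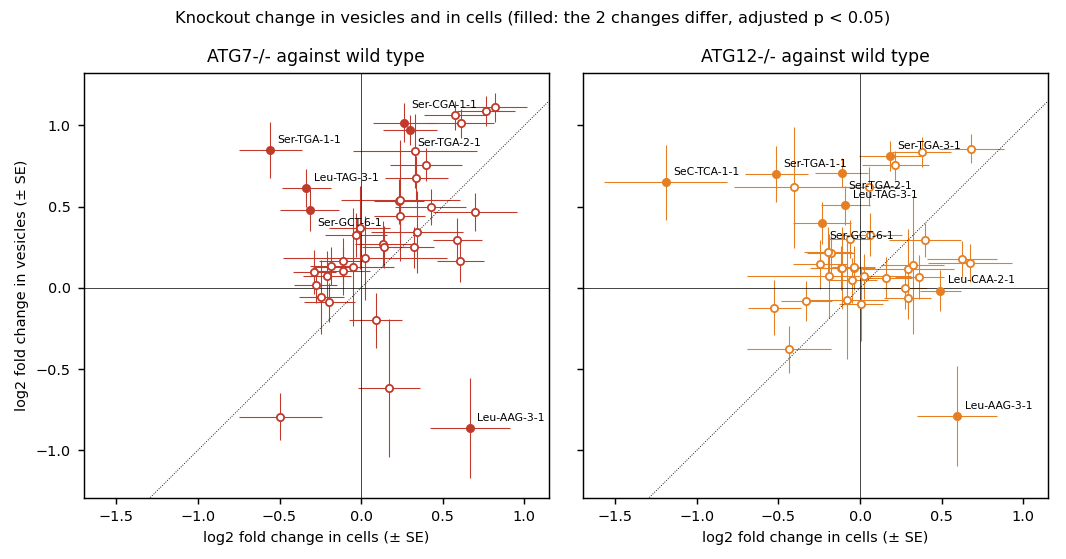
Log2 fold change of knockout over wild type in vesicles (vertical axis, with its SE) against that in cells (horizontal axis, with its SE) for the highest copy of each mature class II tRNA, ATG7-/- on the left and ATG12-/- on the right, with the line of equal change dotted and genes filled and named where both changes differ. Leu-AAG-3-1 lies at -0.86 in vesicles and 0.67 in cells for ATG7-/-, and SeC-TCA-1-1 at 0.65 and -1.19 for ATG12-/-.

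The selenocysteine tRNA was close between libraries in knockout vesicles and spread widely in wild type vesicles. SeC-TCA-1-1 had 2244, 2278 and 2341 in ATG7-/- vesicles, 1825, 2021 and 2163 in ATG12-/- vesicles and 796, 1893 and 1371 in wild type vesicles. ATG7-/- vesicles lay above all wild type libraries, and ATG12-/- vesicles overlapped with them. Against wild type the change was 0.84 (SE 0.23, adjusted p = 0.00570) in ATG7-/- vesicles and 0.65 (SE 0.23, adjusted p = 0.0346) in ATG12-/- vesicles. Without wild type vesicle replicate 1 the ATG7-/- change was 0.51 (adjusted p = 0.00345). The ATG7-/- call was lost with library totals (0.47, adjusted p = 0.115) and with TMM from other tRNAs (0.33, adjusted p = 0.153). The ATG12-/- call was lost without wild type vesicle replicate 1 (0.31, adjusted p = 0.0600), wild type vesicle replicate 3 (0.70, adjusted p = 0.0610) or ATG12-/- vesicle replicate 1, 2 or 3 (adjusted p = 0.0528, 0.0823 and 0.108). It was also lost with library totals (0.29, adjusted p = 0.343), with TMM from all features (0.54, adjusted p = 0.0646) and with TMM from microRNAs (0.54, adjusted p = 0.0977).

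In cells SeC-TCA-1-1 had 278, 808 and 233 in ATG7-/-, 91.4, 164 and 145 in ATG12-/- and 418, 230 and 274 in wild type. The ATG12-/- libraries were the low ones, and the change there was -1.19 (SE 0.38, adjusted p = 0.0353), against 0.33 (SE 0.38, adjusted p = 0.575) in ATG7-/- cells. Without ATG7-/- cell replicate 2 the ATG7-/- value was -0.22 (adjusted p = 0.581). The ATG12-/- call was lost without ATG12-/- cell replicate 1 (adjusted p = 0.119) or 3 (adjusted p = 0.0597) and wild type cell replicate 1 (adjusted p = 0.133) or 3 (adjusted p = 0.0858), and by DESeq2 (adjusted p = 0.0854). Library totals (-0.97, adjusted p = 0.0905) and TMM from all features (-1.11, adjusted p = 0.0548) ended it too. Vesicles exceeded cells by 2.61 (SE 0.35, adjusted p = 4.33e-07) in ATG7-/-, 3.93 (SE 0.35, adjusted p = 6.83e-10) in ATG12-/- and 2.09 (SE 0.35, adjusted p = 1.1e-05) in wild type. SeC-TCA-2-1, the second selenocysteine gene tested, was low, with 29.0, 42.0 and 35.8 in ATG7-/- vesicles, 35.8, 38.5 and 37.7 in ATG12-/- vesicles and 11.6, 44.2 and 26.3 in wild type vesicles. It did not pass in vesicles, where its change was 0.54 (SE 0.37, adjusted p = 0.223) in ATG7-/- and 0.62 (SE 0.37, adjusted p = 0.203) in ATG12-/-. It exceeded cells in each genotype, by 1.63 (SE 0.38) in ATG7-/-, 2.36 (SE 0.38) in ATG12-/- and 1.33 (SE 0.38) in wild type, though with library totals it turned to -0.25 in ATG7-/- and -0.08 in wild type. SeC-TCA-3-1 had at most 11 reads in a library and was not tested. As a share of class II reads, selenocysteine took 3.70% ± 0.119, 3.87% ± 0.275 and 3.63% ± 1.29 in ATG7-/-, ATG12-/- and wild type vesicles and 3.18% ± 2.52, 0.977% ± 0.184 and 2.39% ± 0.720 in cells of the same 3 genotypes.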

How the data were processed

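Small RNA of HEK293T vesicles and cells was sequenced as 50-base single reads from SMARTer smRNA-Seq libraries amplified for 12 cycles, per the labels. The submitters' processing notes name cutadapt 2.3, Bowtie2 2.3, bedtools, DESeq2 and the builds GRCh38 and hg38. Their order, the annotation and the counting of reads that match several genes are not given in the sources used here. The deposited table holds 1 signal value per feature and library, which is reads divided by 1 size factor per library. All values (100%) were whole multiples of the value of 1 read, within a tolerance of 1e-06.

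Values were tested as log2(value + 1) with limma 3.58.1 in R 4.3.3, with an intensity trend and Benjamini-Hochberg adjustment over all features that reached 10 in at least 3 of the libraries compared. Vesicle comparisons used the 9 vesicle libraries, cell comparisons the 9 cell libraries, and the rest all 18. No covariate was used. On the recovered reads edgeR 4.0.16 called 536 features and DESeq2 1.42.0 called 529 in ATG7-/- against wild type vesicles, where limma called 531. In the other comparisons the 3 tools called, in the order limma, edgeR and DESeq2, 371, 387 and 382 (ATG12-/- against wild type vesicles), 424, 423 and 413 (ATG12-/- against ATG7-/- vesicles), 143, 144 and 152 (ATG7-/- against wild type cells), 219, 230 and 235 (ATG12-/- against wild type cells), 749, 757 and 742, 727, 733 and 726, and 740, 745 and 736 (vesicles against cells in ATG7-/-, ATG12-/- and wild type), and 498, 489 and 483 and 239, 236 and 244 (vesicle against cell change of ATG7-/- and ATG12-/-). Other scalings (library totals, and TMM from all features, microRNAs or other tRNAs), minimums, a pseudocount of 5, a replicate block and leaving out each library were tried as alternatives.

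Genes named are the highest of each anticodon, the 3 called mature tRNAs with the largest change each way whose groups do not overlap, every selenocysteine gene, and the second mature tRNA of an anticodon where both were called in opposite directions. Ser-AGA-3-1, Ser-TGA-1-1, Ser-GCT-6-1, Leu-AAG-3-1 and Leu-TAG-3-1 in all comparisons, and other genes outside that rule, were chosen after their values were seen. Members and lists were chosen with earlier results of these data known. Gene positions are from RefSeq GRCh38.p14. Replicates of a group are the labels' biological replicates, and nothing says more of their origin. The p-values thus set group differences against the spread between these libraries, pooled over the groups fitted and moderated over all features.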

Additional observations from a re-analysis of the deposited data

Results flagged for a closer look

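For the genes below, the change a knockout made in vesicles and the change it made in cells differed by limma's test of that difference over all features (adjusted p under 0.05). Values are the log2 change in vesicles minus the log2 change in cells. For ATG7-/- it was -1.53 for Leu-AAG-3-1, 0.9475 for Leu-TAG-3-1, 0.7951 for Ser-GCT-6-1, 1.404 for Ser-TGA-1-1 and 0.6731 for Ser-TGA-2-1. For ATG12-/- it was -1.387 for Leu-AAG-3-1, -0.5081 for Leu-CAA-2-1, 0.597 for Leu-TAG-3-1, 1.841 for SeC-TCA-1-1, 0.6338 for Ser-GCT-6-1, 1.214 for Ser-TGA-1-1 and 0.8237 for Ser-TGA-2-1. Both knockouts share the wild type libraries, so their values are not independent. Groups of 3 libraries are too small for the test of single samples that stand apart.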

How the results depend on the processing

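With library totals, class II genes called higher and lower numbered, as higher/lower, 15/11 in ATG7-/- against wild type vesicles, 10/7 in ATG12-/- against wild type vesicles, 1/6 in ATG12-/- against ATG7-/- vesicles, 13/0 in ATG12-/- against wild type cells, 12/33 in ATG7-/- vesicles against cells, 13/38 in ATG12-/- vesicles against cells, 17/30 in wild type vesicles against cells, 1/6 in the ATG7-/- difference between changes and 1/14 in the ATG12-/- difference between changes. With TMM from other tRNAs, a scaling chosen after seeing the data, the higher and lower counts were 15/20 in ATG7-/- against wild type vesicles, 18/1 in ATG12-/- against wild type vesicles, 21/0 in ATG12-/- against ATG7-/- vesicles, 20/0 in ATG7-/- against wild type cells, 24/30 in ATG7-/- vesicles against cells, 28/28 in ATG12-/- vesicles against cells, 30/25 in wild type vesicles against cells, 1/16 in the ATG7-/- difference between changes and 4/2 in the ATG12-/- difference between changes. With TMM from all features they were 13/2 in ATG12-/- against wild type vesicles, 1/5 in ATG12-/- against ATG7-/- vesicles, 7/0 in ATG12-/- against wild type cells, 3/2 in the ATG7-/- difference between changes and 3/2 in the ATG12-/- difference between changes. With TMM from microRNAs they were 12/2 in ATG12-/- against wild type vesicles, 0/8 in ATG12-/- against ATG7-/- vesicles, 0/21 in ATG7-/- against wild type cells, 0/3 in ATG12-/- against wild type cells, 31/19 in wild type vesicles against cells, 32/1 in the ATG7-/- difference between changes and 5/1 in the ATG12-/- difference between changes. With no minimum value they were 16/1 in ATG12-/- against wild type vesicles, 0/7 in ATG12-/- against ATG7-/- vesicles, 3/1 in ATG12-/- against wild type cells and 4/1 in the ATG12-/- difference between changes. By edgeR they were 18/2 in ATG12-/- against wild type vesicles and 8/2 in ATG12-/- against wild type cells. By DESeq2 they were 21/1 in ATG12-/- against wild type vesicles, 16/0 in ATG7-/- against wild type cells and 10/1 in ATG12-/- against wild type cells. With a minimum of 50, or a pseudocount of 5, 1 gene fell in ATG12-/- against wild type vesicles, where none had. Leaving out 1 library at a time gave 26 to 31 higher and 1 to 2 lower in ATG7-/- against wild type vesicles, 13 to 20 higher and 0 to 2 lower in ATG12-/- against wild type vesicles, 0 to 1 higher and 4 to 17 lower in ATG12-/- against ATG7-/- vesicles, 1 to 16 higher and 0 to 1 lower in ATG7-/- against wild type cells, 0 to 10 higher and 0 to 1 lower in ATG12-/- against wild type cells. It gave 36 to 41 higher and 9 to 9 lower in ATG7-/- vesicles against cells, 31 to 33 higher and 9 to 9 lower in ATG12-/- vesicles against cells, 32 to 34 higher and 11 to 12 lower in wild type vesicles against cells, 5 to 15 higher and 1 to 3 lower in the ATG7-/- difference between changes, 4 to 8 higher and 0 to 2 lower in the ATG12-/- difference between changes. With library totals the log2 change turned in ATG12-/- against wild type vesicles to -0.062 for Leu-AAG-2-4, in ATG7-/- vesicles against cells to -1.49 for Leu-CAA-1-2, -1.86 for Leu-CAG-2-1, -0.071 for Leu-TAG-1-1, -1.89 for Leu-TAG-3-1, -0.25 for SeC-TCA-2-1, -1.88 for Ser-GCT-3-1 and -1.57 for Ser-TGA-1-1, in ATG12-/- vesicles against cells to -0.51 for Leu-AAG-2-4, -1.99 for Leu-CAA-1-2, -1.93 for Leu-CAG-2-1, -0.48 for Leu-TAG-1-1, -0.0049 for Ser-CGA-1-1, -1.85 for Ser-GCT-3-1 and -1.88 for Ser-TGA-1-1, in wild type vesicles against cells to -1.21 for Leu-AAG-3-1, -1.13 for Leu-CAA-1-2 and -0.076 for SeC-TCA-2-1. TMM from other tRNAs turned it in ATG7-/- against wild type vesicles to -0.048 for Leu-TAG-1-1 and -0.036 for Ser-GCT-6-1, in ATG12-/- against ATG7-/- vesicles to 0.0062 for Leu-AAG-2-4, 0.16 for Leu-TAG-1-1, 0.37 for Leu-TAG-3-1, 0.21 for Ser-AGA-1-1, 0.078 for Ser-CGA-1-1, 0.39 for Ser-GCT-6-1 and 0.21 for Ser-TGA-2-1, in ATG7-/- vesicles against cells to -0.88 for Leu-CAA-1-2, -1.25 for Leu-CAG-2-1, -1.28 for Leu-TAG-3-1, -1.27 for Ser-GCT-3-1 and -0.96 for Ser-TGA-1-1, in ATG12-/- vesicles against cells to -0.64 for Leu-CAA-1-2, -0.58 for Leu-CAG-2-1, -0.50 for Ser-GCT-3-1 and -0.53 for Ser-TGA-1-1, in wild type vesicles against cells to -0.28 for Leu-CAA-1-2, in the ATG7-/- difference between changes to -0.60 for Leu-CAA-1-2, -0.57 for Ser-CGA-3-1, -0.60 for Ser-GCT-3-1 and -0.033 for Ser-TGA-2-1. Summed over all gene rows, where each copy adds its reads, the share of serine AGA was 41.8%, 42.3% and 33.8% in ATG7-/-, ATG12-/- and wild type vesicles and 5.92%, 4.44% and 4.09% in cells. That of leucine AAG was 29.3%, 26.7% and 32.4% in vesicles and 37.3%, 38.6% and 29.2% in cells. With the highest copy of each mature tRNA alone, wild type cells had 2.58% and 19.9%. Same-numbered libraries did not deviate together: over 15 pairs of groups the correlation was -0.225 to 0.198, and in 0 of them was every one above 0.1, so the numbers were not taken as pairs. With the replicate number as a block, 0 genes were higher and 7 lower in ATG12-/- against ATG7-/- vesicles, 2 rose in ATG12-/- against wild type cells, and 1 was lower in the ATG12-/- difference between changes. Over all alternatives for named genes, 3074 values stayed on the same side of the threshold, 187 lost a call and 87 gained one in the same direction. In 41 the sign changed and at least 1 of both settings called the gene. Changes of sign where neither setting called the gene are counted among the 3074, so direction was not kept in all of them. The causes were not tested. With 1 read worth 1.17 to 1.89 normalised reads in vesicles, the lowest genes rest on few reads.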

Other observations

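Gene copies that share 1 mature tRNA were closer to each other in vesicles than in cells. The spread within a library is the highest minus the lowest count of the copies, as a percentage of the highest. Its median over libraries was smaller in vesicles for 7 of 7 mature class II tRNAs with several tested copies. For the 4 copies of Leu-AAG-2 the median spread was 0.228% in vesicles and 19.6% in cells, at 3241.53 and 1701.08 mean reads. For both copies of Leu-CAA-1 it was 0.606% in vesicles and 44.1% in cells, and for the 3 copies of Ser-GCT-4 it was 9.24% in vesicles and 54.8% in cells. Those pairs had fewer reads in vesicles than in cells, with means of 248.833 and 321.222 for Leu-CAA-1 and 202.37 and 600.148 for Ser-GCT-4. The smallest contrast was that of Leu-CAG-2, with 0.683% in vesicles and 0.897% in cells.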
